A study of Equus caballus with 2 samples.

Results

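The contractile-high fibroblasts described here are 386 of the 3865 kept cells of a library of unstimulated equine endometrial fibroblasts. They were chosen by their own expression, as the top 10% of cells by the summed level of *ACTA2*, *TAGLN*, *CNN1* and *MYL9*. A level is the number of UMIs (unique molecular identifiers, each 1 counted mRNA molecule) per 1000000 UMIs of the cell (CPM). Across all other genes they were compared with the 1932 cells in the bottom 50% by the same sum, and the 1547 cells between served only where levels are followed along the sum. A group taken from a continuous sum is a range of cells and not a separate type.

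Fibroblasts of 4 mares were cultured on hydrogels coated with collagen, and after treatment they were pooled over mares, 1 pool per treatment. For 24 h the control cells received medium with 0.1% BSA and no other supplement, and in a further group TGF-β1 (human, recombinant) was added to it at 10 ng/ml. Each group gave 1 droplet library of 3′ mRNA ends, and the cells treated with MFGE8 were not analysed here. The kept control cells held 210497250 UMIs and the 4513 kept TGF-β1 cells 219731144. The study separated the mares by genotype, but the deposited files do not assign cells to mares, so that here a difference between mares and a difference between cell states cannot be told apart. The libraries shared 6 cell barcodes, of which 2 were kept in both.

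With 1 library per condition no test was possible, since cells of 1 library are not replicates. Genes were therefore compared by size, as the log2 ratio of the summed UMIs of contractile-high cells over those of the bottom 50%, each scaled to CPM. The 95% intervals given in brackets are exact (Clopper-Pearson) and cover counting error only.

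Smooth muscle cells and myofibroblasts share a contractile programme of smooth muscle actin, myosin, tropomyosins, calponins and transgelin, which is switched on by serum response factor with its myocardin-related cofactors. In fibroblasts the programme is known to follow mechanical tension and TGF-β signalling, and its appearance marks the myofibroblast of wound repair and fibrosis. Differentiated smooth muscle, as in the myometrium and in vessel walls, adds late genes such as smooth muscle myosin heavy chain, desmin and gamma smooth muscle actin.

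The sum of the 4 genes ran from 44.5 CPM to 49761 CPM over the kept control cells, with a median of 7972 CPM and no gap at either limit. The 3 contractile-high cells nearest the limit had 17304, 17305 and 17356 CPM, and the 3 cells just outside had 17279, 17279 and 17277 CPM. Within 10% of the limit lay 137 contractile-high cells and 153 others. *ACTA2*, which encodes alpha smooth muscle actin, had between 4165 and 26316 CPM in contractile-high cells, with a median of 9135 CPM, against a median of 1107 CPM and a highest value of 4240 CPM in the bottom 50%. *TAGLN*, encoding the actin-binding protein transgelin, had a median of 9074 CPM (lowest 5355, highest 17189) against 2392 CPM. The regulatory light chain gene *MYL9* had a median of 1822 CPM against 535 CPM, and the calponin gene *CNN1* a median of 494 CPM against 41.8 CPM. *ACTA2* and *TAGLN* thus made up a median of 45.1% and 43.7% of the sum in contractile-high cells, *MYL9* 8.64% and *CNN1* 2.36%. Of the 386 cells, 115 were in the top 10% of all 4 genes taken singly, 117 in that of 3, 116 in that of 2 and 38 in that of 1. After thinning to equal depth the genes moved together over the 3865 cells, with Spearman coefficients between 0.63 for *CNN1* with *MYL9* and 0.89 for *ACTA2* with *TAGLN*. All these values come from the genes the cells were selected on, and nothing is tested with them.

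Contractile-high cells had a median of 56538 UMIs and 6532 genes per cell, with 1.29% of UMIs on mitochondrial genes. In the bottom 50% the medians were 47130 UMIs, 6463 genes and 1.49%. The 4 genes alone took 2.16% of the UMIs of contractile-high cells and 0.439% of those of the bottom 50%.

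Of the other genes, 7600 averaged 10 CPM or more over the 2 groups and were compared: 75 (0.987%) were more than 2-fold higher in contractile-high cells and 214 (2.82%) more than 2-fold lower. The median log2 ratio of all 7600 genes was -0.17, and 31.2% of them lay above 0 and 68.8% below, and gene groups are given beside these values. With a median-of-ratios size factor, which sets the typical gene to 0, 115 genes were higher and 122 lower. The interval lay wholly past 2-fold for 61 of the 75 higher and 130 of the 214 lower genes. Of the 30 gene lists, 426 genes were tested, and 22 of them were higher and 30 lower, while 237 of the 289 genes past the limit were in no list.

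Contractile genes that the choice did not use had the highest median of the 30 lists. Of 16 tested genes of the smooth muscle contractile list, 9 were more than 2-fold higher and 0 lower, with a median log2 ratio of 1.10. *ACTG2*, which encodes gamma smooth muscle actin, had 1091 CPM in contractile-high cells and 84.2 CPM in the bottom 50%, a log2 ratio of 3.70 (3.66 to 3.73). Cells differed widely in it, with a median of 460 CPM and a highest value of 16591 CPM among contractile-high cells. Because *ACTG2* and *TAGLN3* (51.4 against 7.82 CPM, log2 ratio 2.72) are close relatives of *ACTA2* and *TAGLN*, and reads of near-identical copies could be split between them, their levels are uncertain. The smooth muscle myosin heavy chain gene *MYH11* had 84.7 against 21.4 CPM (1.98, 1.89 to 2.07). *TPM1*, a tropomyosin that lies along the actin filament, was far more abundant, with 4629 against 1627 CPM (1.51). *LMOD1*, which nucleates actin filaments, and *DES*, the muscle intermediate filament desmin, had log2 ratios of 1.42 and 1.39. *TPM2*, a further tropomyosin named after its values were seen, had 4953 against 1817 CPM (1.45). *CALD1*, an actin-binding regulator of contraction and the most abundant gene of the list over all kept control cells, had 4869 against 2457 CPM, a log2 ratio of 0.99 that lay just under the limit. *SYNPO2*, also an actin-binding protein of smooth muscle, had 107 against 96.8 CPM (0.14, 0.08 to 0.21).

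Of the ion channel and calcium handling list, 1 gene was more than 2-fold higher. *KCNMB1*, the accessory subunit that tunes the large-conductance calcium-activated potassium channel, had 210 against 48.3 CPM (2.12, 2.06 to 2.18). The pore-forming partner *KCNMA1*, named after its values were seen, had 7.76 against 12.7 CPM (-0.71). Of the 14 tested genes of the list 10 were below 0, beside 68.8% of all 7600 genes. *PDE1A*, a phosphodiesterase that breaks down cyclic nucleotides, was more than 2-fold lower, with 14.4 against 40.6 CPM (-1.50). The median of that list was -0.42.

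The wider actin machinery had a lower median. Among 33 genes of actomyosin and focal adhesion, 27 had a log2 ratio above 0, beside 31.2% of all 7600 genes, with a median of 0.30. Of the 33, 1 was more than 2-fold higher (4 with the median-of-ratios size factor) and 0 lower. The 1 gene past the limit was *ACTN1*, the alpha-actinin that cross-links actin at adhesions, with 499 against 216 CPM (1.21, 1.17 to 1.24). *ACTB*, cytoplasmic actin and the most abundant gene of the list, had 7727 against 4055 CPM (0.93), followed by the adhesion protein *ZYX* (0.86) and the non-muscle myosin *MYH10* (0.84). Of 12 integrins and integrin partners 0 were more than 2-fold higher, the kinase-like adaptor *ILK* (0.80) and the collagen-binding integrin *ITGA11* (0.79) among them, with a median of 0.35. *ITGB8* (-1.29) and *ITGB5* (-1.08), both beta chains of integrins that can bind latent TGF-β, were more than 2-fold lower, but came to -0.99 and -0.81 with the bottom 50% standardised to the clusters of contractile-high cells.

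**Figure D1:**
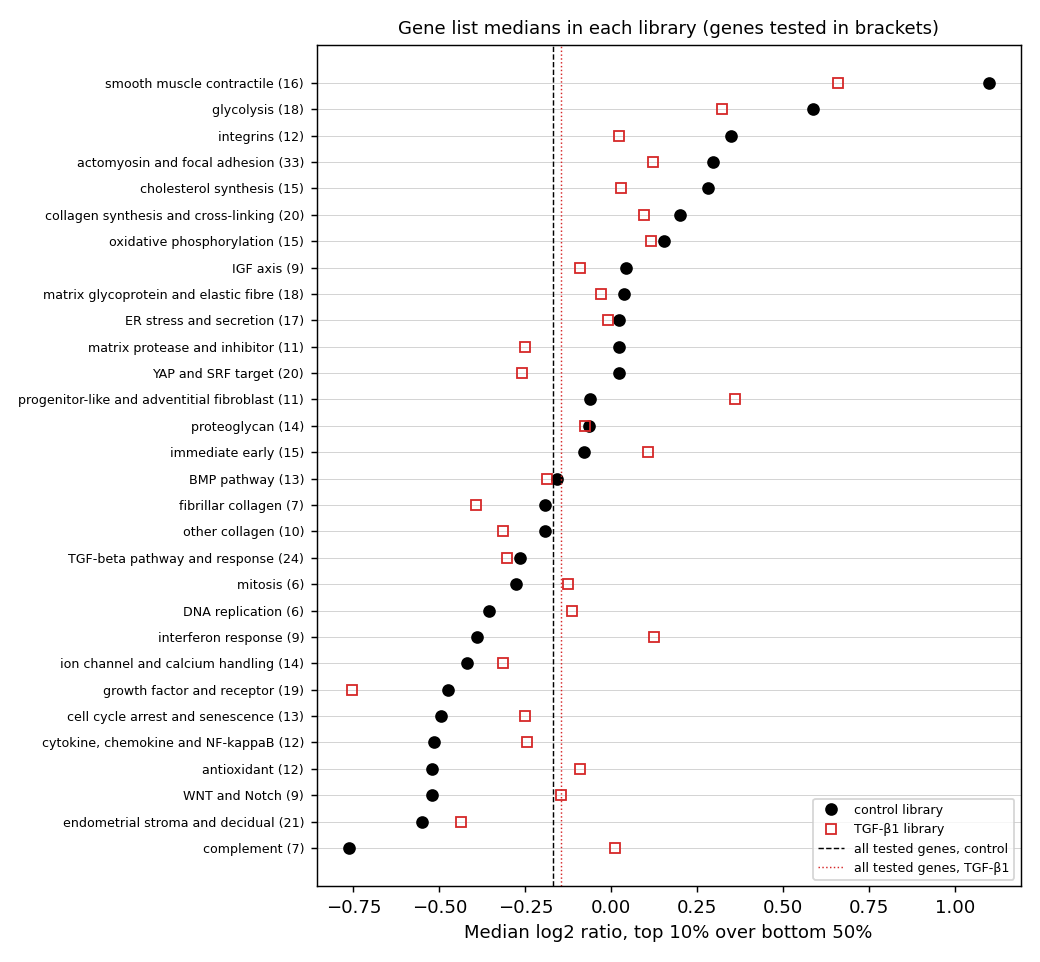
Median log2 ratio of each gene list, top 10% over bottom 50% of cells by the summed CPM of the 4 genes, in the control library (filled circles) and in the TGF-β1 library (open squares). The vertical lines mark the medians of all tested genes, -0.17 in control and -0.14 in the TGF-β1 library, and the smooth muscle contractile list lies farthest to the right in both, at 1.10 and 0.66.

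Of 20 targets and mediators of YAP and serum response factor, 4 were more than 2-fold higher and 0 lower, yet the list's median was 0.02. *CCN3*, a secreted matricellular protein, had the largest log2 ratio of all named genes, 4.52 (4.23 to 4.81), from 27.7 against 1.21 CPM. *ANKRD1*, a muscle ankyrin repeat protein and a classical YAP target, had 117 against 15.5 CPM (2.92, 2.83 to 3.01). *CCN2*, the connective tissue growth factor gene, had 396 against 149 CPM (1.41), and *CRIM1*, a membrane protein that binds growth factors, had 296 against 142 CPM (1.06). *CCN1*, the most abundant gene of the list over all kept control cells though not in contractile-high cells, had 359 against 239 CPM (0.59).

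In the TGF-β pathway and response list, 3 of 24 tested genes were more than 2-fold higher, 0 were lower, and the median was -0.27. Among the higher genes were secreted proteins. *INHBA*, the subunit of activin A, had 250 against 41.2 CPM (2.60, 2.54 to 2.66). *LTBP1*, which tethers latent TGF-β in the matrix, had 220 against 81.0 CPM (1.44). *TGFB1* itself had 13.8 against 27.0 CPM (-0.97, -1.15 to -0.80), and *SMAD3*, which carries the signal to the nucleus, had 20.3 against 40.2 CPM (-0.98). Among 13 genes of the BMP pathway, 1 was higher and 0 lower, with a median of -0.16 that turned to 0.01 with the median-of-ratios size factor. The higher gene was *GREM1*, a secreted antagonist of BMPs, with 62.6 against 13.2 CPM (2.25, 2.14 to 2.36).

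Most collagens were within 2-fold, in both directions. Of 7 fibrillar collagens 0 were past the limit in either direction, and their median of -0.19 lay close to that of all genes. *COL1A1* had 4886 against 5681 CPM (-0.22, -0.23 to -0.21) and *COL3A1* 3856 against 4612 CPM (-0.26). *COL11A1* had 42.0 against 27.0 CPM (0.63), the only 1 of the 7 above 0, and *COL27A1* had 9.61 against 17.7 CPM (-0.88). Of 10 other collagens, whose median was -0.19, 1 was lower, namely *COL6A3* of the microfibrillar collagen VI (40.6 against 87.8 CPM, -1.11), and *COL12A1*, which decorates collagen fibrils, had 488 against 277 CPM (0.82). The 20 genes of collagen synthesis and cross-linking had a median of 0.20 with 0 past the limit, with *LOX*, a cross-linking oxidase, at 0.65 and the collagen chaperone *SERPINH1* at 0.43.

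The rest of the matrix was mixed. Of 18 matrix glycoproteins and elastic fibre genes (median 0.04), *TNC*, tenascin C of wound matrix, was higher (189 against 87.2 CPM, 1.11) and *TNXB* lower (6.13 against 18.7 CPM, -1.61). *FN1* had 1918 against 1842 CPM (0.06), and *MFGE8*, a bridge between cells and apoptotic bodies, had 386 against 241 CPM (0.68, 0.64 to 0.71). Of 14 proteoglycan and hyaluronan genes, *HAS2*, a hyaluronan synthase, was lower (6.57 against 23.7 CPM, -1.85), while *ASPN* (0.99) and *VCAN* (0.81) stayed under the limit. That list's median of -0.07 turned to 0.10 with the median-of-ratios size factor. Of 11 matrix proteases and inhibitors (median 0.02), 2 were lower, the plasminogen activator *PLAT* (17.5 against 38.3 CPM, -1.13) and *ADAMTS12* (47.3 against 104 CPM, -1.13). *TIMP1*, the most abundant, had 2884 against 3291 CPM (-0.19).

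Several receptors and ligands of growth factors were more than 2-fold lower. Of 19 tested genes 5 were more than 2-fold lower and 0 higher, with a median of -0.48. Below 0 lay 12 and above it 7, beside 68.8% and 31.2% of all 7600 genes. *EDNRB*, an endothelin receptor, had 16.7 against 103 CPM (-2.63, -2.78 to -2.48), and *PDGFRA*, the platelet-derived growth factor receptor of stromal progenitors, had 15.6 against 74.1 CPM (-2.25, -2.41 to -2.09). *HGF* (-1.58), *FGF1* (-1.26) and *EGFR* (-1.05, named after its values were seen) completed the 5. With the median-of-ratios size factor 4 genes of the list were lower, and 3 with the bottom 50% standardised to the clusters of contractile-high cells. *FGF2*, the most abundant gene of the list, had 252 against 489 CPM (-0.95). *NRG1*, a ligand of ERBB receptors, was in no list and had 3.83 against 34.9 CPM (-3.19, -3.51 to -2.88). In the 9 genes of the IGF axis (median 0.04), *IGF2R*, which clears IGF2, was lower (-1.19) and *IGFBP4* had 217 against 358 CPM (-0.73). *PAPPA*, the protease that cleaves IGFBP4, was in no list and had 15.6 against 103 CPM (-2.72, -2.88 to -2.57). The 9 tested genes of WNT and Notch had a median of -0.52, or -0.01 with the bottom 50% standardised to the clusters of contractile-high cells, with 0 past the limit, from *HES1* at -0.79 to *JAG1* at 0.86. *WNT6* was in no list and had 2.91 against 18.9 CPM (-2.70).

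Most genes of endometrial stromal identity had ratios below 0. Of 21 tested genes 20 had a log2 ratio below 0 and 5 were more than 2-fold lower, with a median of -0.55. The oestrogen receptor gene *ESR1* had 15.3 against 82.1 CPM (-2.42, -2.58 to -2.27) and the progesterone receptor gene *PGR* 19.7 against 44.3 CPM (-1.17, -1.32 to -1.03). The transcription factors *ZEB2* (-1.25) and *FOXO1* (-1.09, a regulator of decidualization named after its values were seen) were also past the limit. *PRRX1*, a mesenchymal homeobox gene and the most abundant of the list, had 209 against 333 CPM (-0.67). The 11 genes of progenitor-like and adventitial fibroblasts had 0 past the limit and a median of -0.06, which turned to 0.11 with the median-of-ratios size factor.

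Glycolysis genes were mostly above 0 and antioxidant genes mostly below. Of 18 glycolysis genes 16 had a log2 ratio above 0, beside 31.2% of all 7600 genes, and the median was 0.59, although 0 passed 2-fold. *BNIP3*, a mitophagy receptor listed with them, had 468 against 249 CPM (0.91), *LDHA* 1236 against 691 CPM (0.84), *ALDOA* 1000 against 563 CPM (0.83) and *GAPDH* 4664 against 3091 CPM (0.59). The 15 oxidative phosphorylation genes had a median of 0.15 and 0 past the limit. Of 15 cholesterol synthesis genes 14 were above 0, with a median of 0.28, and 1 was more than 2-fold higher and 0 lower. The 17 genes of ER stress and secretion had a median of 0.02 and 0 past the limit. Of 12 antioxidant genes 10 were below 0, beside 68.8% of all 7600 genes, with a median of -0.52. Catalase (*CAT*) had 47.6 against 138 CPM (-1.53, -1.62 to -1.44) and *HMOX1*, haem oxygenase, 17.1 against 45.9 CPM (-1.42).

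Below 0 were 10 of 12 cytokine, chemokine and NF-κB genes, 6 of 7 complement genes and 8 of 9 interferon response genes, beside 68.8% of all genes. Of the 12 cytokine genes 2 were more than 2-fold lower, *PTGS2* of prostaglandin synthesis (44.0 against 104 CPM, -1.24) and *NFKB1* (92.7 against 191 CPM, -1.04), with a median of -0.51. *IL1R1*, the interleukin 1 receptor, which was in no list, had 4.01 against 19.4 CPM (-2.27). Of 7 complement genes 1 was lower and 0 higher, with a median of -0.76, and of 9 interferon response genes 1 was lower, *BST2* (-1.04), with a median of -0.39. The 15 immediate early genes had a median of -0.08, or 0.09 with the median-of-ratios size factor, and *EGR2* (-1.14) and *KLF10* (-1.02) were lower.

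Few contractile-high cells carried cycling markers. After thinning each cell to 20000 UMIs, 4 of 386 contractile-high cells (1.04%, 0.283% to 2.63%) and 58 of 1932 cells of the bottom 50% (3.00%, 2.29% to 3.86%) had UMIs of at least 3 of the 9 cycling markers found. *TOP2A*, which untangles replicated DNA, had 4.72 against 16.8 CPM (-1.83), and *UBE2C*, a ubiquitin-conjugating enzyme of mitosis, had 20.7 against 19.1 CPM (0.11, -0.04 to 0.26). Of 6 mitosis genes 2 were lower, *TOP2A* and *TPX2*, with a median of -0.28. *TPX2*, a spindle assembly factor, had a log2 ratio of -1.06 that turned to 0.92 when cells with cycling markers were removed from both groups. The same removal took *TOP2A* to -0.54, no longer past 2-fold, and *UBE2C* to 1.05, past it. *TOP2A* and *UBE2C* are themselves among the markers that decided which cells were removed, so their shifts are not independent of the removal. The 6 DNA replication genes had a median of -0.36 and 0 past the limit. Of 13 genes of cell cycle arrest and senescence (median -0.49), the cyclin *CCND3* was higher (57.9 against 25.0 CPM, 1.21) and the kinase inhibitor *CDKN2C* lower (19.4 against 46.2 CPM, -1.25), and *CDKN1A* had 40.2 against 78.7 CPM (-0.97).

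Several of the most different genes belonged to no list. *MYCL*, a transcription factor of the MYC family, had 17.5 against 2.86 CPM (2.61), and *EFHD1*, a calcium-binding protein of mitochondria, had 18.3 against 3.32 CPM (2.47). *SYTL2*, of vesicle transport, had 20.5 against 5.49 CPM (1.90), *TRIL*, a partner of toll-like receptors, 16.9 against 4.77 CPM (1.83) and *ISOC1* 150 against 43.5 CPM (1.79). At the other end, the membrane-bound carbonic anhydrase *CA4* had 4.19 against 48.3 CPM (-3.53, -3.84 to -3.23) and the cytochrome *CYP1A1*, a target of the aryl hydrocarbon receptor, 3.83 against 22.8 CPM (-2.57). The transcription factor *SOX5* had 20.8 against 108 CPM (-2.38), and *TNFSF10*, the death ligand TRAIL, 5.07 against 22.9 CPM (-2.18). The membrane proteins *TMEM100* (-2.30), *UNC5D* (-2.27), *PTPRD* (-2.23) and *TENM4* (-1.98) completed the 15 lowest.

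In the marker lists, contractile-high cells had fibroblast genes at levels near those of the bottom 50%, and smooth muscle genes well above. All 10 fibroblast markers were tested, with a summed level of 27777 CPM in contractile-high cells and 29176 CPM in the bottom 50%. *S100A4* was the most abundant (7580 against 7311 CPM), *VIM* had 4483 against 4359 CPM (0.04), and *PDGFRA* alone was past the limit. Of 10 markers of differentiated smooth muscle all were found and 7 tested, 5 of them higher, with a summed level of 2764 against 741 CPM and *DES* the most abundant. *MYOCD*, myocardin itself, had 10.3 against 6.01 CPM (0.78, 0.56 to 1.00), while *CASQ2* had 2 UMIs in contractile-high cells and 1 UMI in the bottom 50%. Contractile-high cells had UMIs of a median of 6 of these 10 markers after thinning and 7 without, against 3 and 5 in the bottom 50%. All 10 pericyte markers were found and 2 tested, with a summed level of 88.8 against 60.0 CPM. *RGS5*, the most abundant, had 56.2 against 50.2 CPM (0.16), and *MCAM*, an adhesion molecule of pericytes and smooth muscle, had 17.0 against 3.04 CPM (2.49, 2.26 to 2.71). Below the minimum, *NDUFA4L2*, a mitochondrial protein used as a pericyte marker, had 12.6 against 1.66 CPM (2.92, 2.64 to 3.21) but was found in 4.40% of contractile-high cells after thinning, against 2.43%. *CSPG4* had 0.397 against 1.32 CPM and *ANGPT1* 0.837 against 2.17 CPM, and *KCNJ8* and *ABCC9* had 0 UMIs in contractile-high cells.

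Most epithelial, endothelial and immune markers were below the minimum of 10 CPM, and the exceptions were *KRT8*, *KRT7* and *CD68*. Of 13 epithelial markers 10 were found and 2 tested, with a summed level of 107 against 127 CPM, nearly all from *KRT8* (86.8 against 107 CPM) and *KRT7* (18.8 against 19.2 CPM). *EPCAM*, *CLDN3*, *ELF3* and *FOXA2* had 0 UMIs in contractile-high cells. All 9 endothelial markers were below the minimum, with a summed level of 3.35 against 4.67 CPM, *EGFL7* the most abundant and *CDH5* at 0. Of 9 immune markers 8 were found, and *CD68*, the only 1 tested, carried 48.2 of 48.3 CPM, while *PTPRC*, *CD3E*, *CD163*, *LYZ*, *AIF1* and *TYROBP* were at 0. A marker with 0 UMIs may still be expressed below detection.

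Shares of cells separated genes found in most contractile-high cells from genes confined to few of them. The shares were taken after thinning, and no cell type in the library offered a measure of free RNA. *INHBA* was found in 89.1% of contractile-high cells and 37.7% of the bottom 50% (96.9% and 54.5% without thinning). *ACTG2* was found in 73.6% (68.9% to 77.9%) against 26.6% (24.6% to 28.6%), or 81.1% and 36.1% without thinning. *MYH11* was found in 64.8% against 25.4%, or 86.3% and 41.2% without thinning. Both *ACTG2* and *MYH11* were found in 183 contractile-high cells (47.4%, 42.3% to 52.5%), *ACTG2* alone in 101, *MYH11* alone in 67 and neither in 35. In the bottom 50% both were found in 163 cells (8.44%, 7.24% to 9.77%). *CCN3*, by contrast, was found in 13.5% of contractile-high cells and 2.07% of the bottom 50% (17.6% and 3.73% without thinning), and reached 1385 CPM in 1 of them. Among lower genes, *PDGFRA* was found in 26.9% against 67.6%, *ESR1* in 23.3% against 53.2% and *NRG1* in 3.89% against 19.0%. Without thinning these shares were 49.7% against 87.0%, 40.2% against 69.7% and 8.55% against 27.6%.

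**Figure D2:**
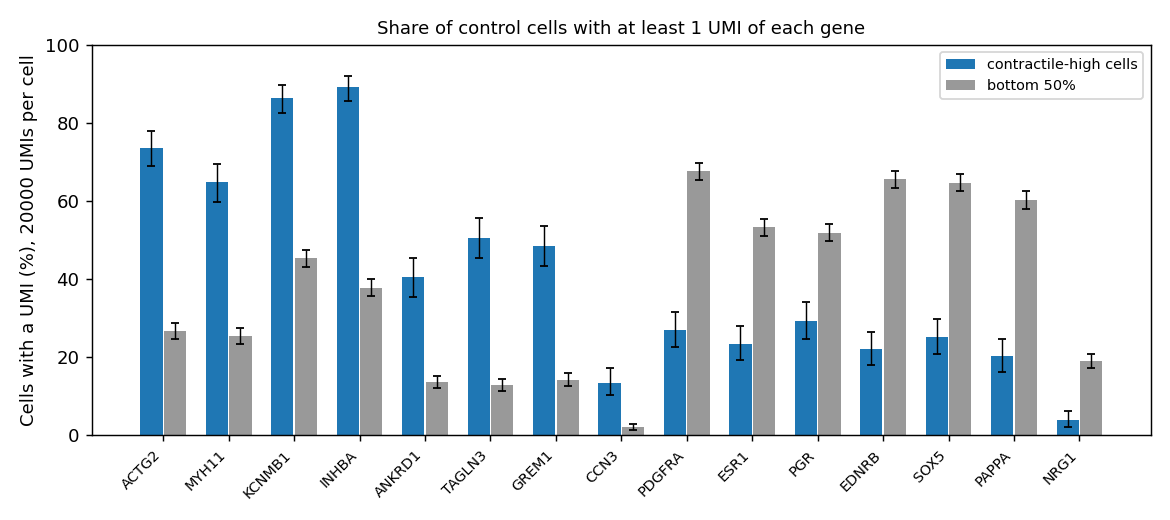
Percentage of control cells with at least 1 UMI of each gene after thinning to 20000 UMIs per cell, for the 386 contractile-high cells and the 1932 cells of the bottom 50%. Bars start at 0 and error bars are exact 95% binomial intervals for counting error. *INHBA* stands at 89.1% against 37.7%, and *CCN3* at 13.5% against 2.07%.

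When all kept control cells were put in order of the sum and divided into 10 equal groups, part of these genes changed level step by step. Of the 75 higher genes 35 rose in each of the 9 steps, and of the 214 lower genes 55 fell in each, while of all 7600 tested genes 137 rose and 142 fell in each. The 75 and 214 genes were selected on the same cells, which favours such an order, so these counts are a description. *ACTG2* went from 3.76 CPM in group 1 through 172 CPM in group 5 to 790 CPM in group 9 and 1091 CPM in group 10. *INHBA* went from 11.1 through 67.1 to 250 CPM and *KCNMB1* from 22.1 through 71.2 to 210 CPM, each rising in every step. *CCN3* stayed between 0.70 and 6.11 CPM in the lower 9 groups and had 27.7 CPM in the highest, and *MCAM* stayed between 2.67 and 9.75 CPM and then had 17.0 CPM. *ESR1* fell in every step, from 160 through 55.3 to 15.3 CPM, as did *PDGFRA*, from 118 through 46.2 to 15.6 CPM, and *EDNRB*, from 195 through 63.2 to 16.7 CPM. *COL1A1* had its lowest levels at both ends, 5127 and 4886 CPM, and *VIM* lay between 4049 and 4528 CPM. *MYOCD* levelled off at 10.3 CPM after 11.1 CPM in group 8. The median depth rose along the same order, from 41320 UMIs per cell in the lowest group to 56538 in the highest. With the bottom 50% standardised to the UMI quintiles of contractile-high cells, 61 genes were higher and 258 lower. Of the 66 named genes past 2-fold all kept their sign so standardised, and 62 stayed past it. With each cell thinned to 20000 UMIs all 66 also kept their sign, and 64 stayed past 2-fold. The part of depth in the levels along the 10 groups was not tested.

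**Figure D3:**
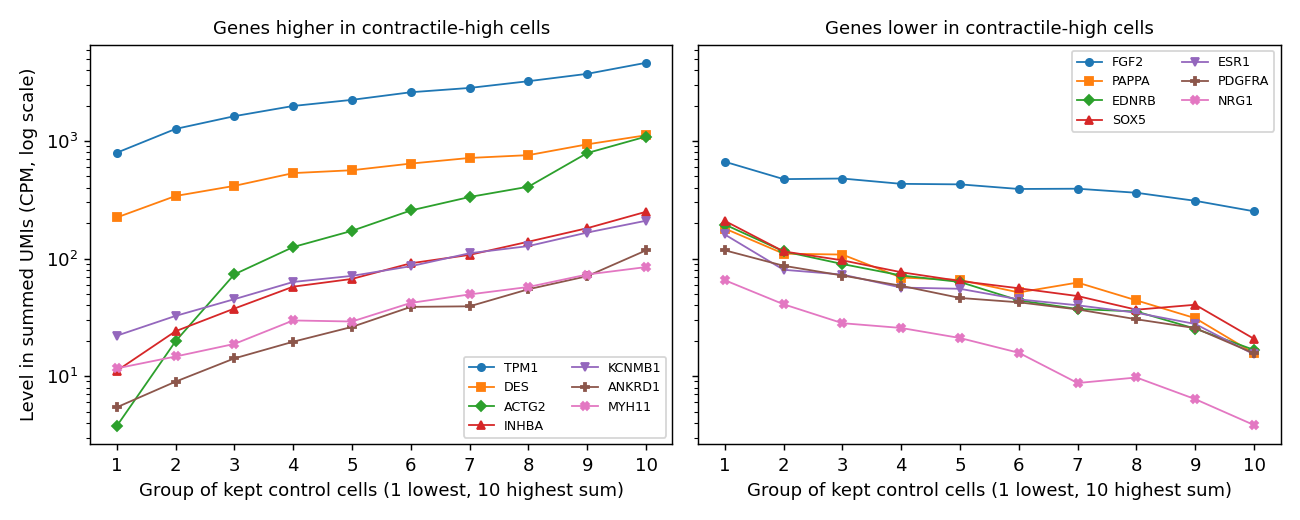
Level of 7 genes that were higher and 7 that were lower in contractile-high cells, as CPM of summed UMIs on a log axis, in 10 groups of 386 or 387 kept control cells from the lowest (1) to the highest (10) sum of the 4 genes. *ACTG2* runs from 3.76 to 1091 CPM and *ESR1* from 160 to 15.3 CPM.

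Contractile-high cells were spread unevenly over the 7 clusters that the control cells formed when the 4 genes were left out. Cluster 4, led by *APOE* and *PRSS23*, held 156 of them (40.4%) and 6.47% of the bottom 50%. Cluster 0, led by *CA4* and *SUSD4*, held 3 contractile-high cells (0.777%) and 37.3% of the bottom 50%. Cluster 5, led by the mitotic genes *CENPF* and *CCNA2*, held 6, and cluster 6 held 0. Ratios within clusters were taken in the 4 clusters with at least 20 cells of each group, for genes that were selected on these same cells. *ACTG2* lay between 2.80 and 4.51 over these clusters, *INHBA* between 1.98 and 2.66, *ESR1* between -2.37 and -1.04 and *PDGFRA* between -2.07 and -1.77. With the bottom 50% standardised to the cluster shares of contractile-high cells, 63 genes were higher and 74 lower. The smooth muscle contractile list then had a median of 1.08, the medians of the proteoglycan list (0.02) and the IGF axis (-0.03) changed sign, and those of mitosis and DNA replication both came to -0.04, beside -0.12 over all genes. *MYH11* had a log2 ratio of 2.37. *CA4*, a leading gene of cluster 0, moved to -2.38, *PTPRD* to -1.22 and *HMOX1* to -0.68. *EFHD1* moved to 1.69, *PAPPA* to -2.04, *ESR1* to -1.78, *SOX5* to -1.74 and *TOP2A* to -1.22.

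Calls near the 2-fold limit depended on such choices. Of the 66 named genes past 2-fold, 48 stayed past it with the clusters standardised and 56 with the median-of-ratios size factor. Under both *ADAMTS12*, *BST2*, *COL6A3*, *EGR2*, *ITGB5*, *KLF10*, *NFKB1*, *PLAT* and *TPX2* came below it. With the clusters alone *CRIM1*, *FGF1*, *HMOX1*, *IGF2R*, *ITGB8*, *PGR* (-0.92) and *ZEB2* did so too. With the size factor *ACTB*, *ZYX*, *MYH10*, *CALD1*, *SMTN*, *ASPN*, *BNIP3*, *LDHA* and *JAG1* passed the limit as higher genes.

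The same rule was applied to the TGF-β1 library on its own cells, which gave 451 cells in the top 10% and 2256 in the bottom 50%. These are other cells, pooled from the same 4 mares, so the 2 libraries share their donors. Whether a difference between mares enters both libraries was not tested. The sum of the 4 genes had a median of 22777 CPM in its top 10% and 9548 CPM in its bottom 50%, against 20155 and 4307 CPM in control, so that the contrast there was narrower. Of all kept TGF-β1 cells 849 (18.8%) had at least the lowest sum of the contractile-high control cells. In that library 27 of 7504 genes (0.36%) were more than 2-fold higher and 144 (1.92%) more than 2-fold lower, with a median of -0.14 over all genes.

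Nearly all genes kept their direction there. Of the 75 genes that were higher in contractile-high control cells, 74 had a ratio above 0 in the TGF-β1 library, where 36.2% of the 7600 genes tested in control did. Of the 214 lower genes 210 had a ratio below 0, where 63.8% of the 7600 did. Of those tested in the TGF-β1 library, 20 of 73 higher and 59 of 165 lower genes were also past 2-fold in the same direction. The exceptions were *CADPS* among the higher genes and *MGMT*, *CFD*, *OTULINL* and *BST2* among the lower, so *CADPS*, *MGMT* and *OTULINL* are named after their values were seen. In the TGF-β1 library the intervals of *CFD* (-0.06 to 0.16), *OTULINL* (-0.18 to 0.25) and *BST2* (-0.29 to 0.52) included 0. The 289 genes were selected on their control ratios, and 71 of the 75 and 194 of the 214 had a smaller ratio in the TGF-β1 library. *CCN3* had 55.0 against 4.00 CPM there (3.78, 3.62 to 3.94), *ANKRD1* 733 against 177 CPM (2.05) and *ACTG2* 2037 against 588 CPM (1.79). *INHBA* had 455 against 232 CPM (0.97) and *MYH11* 43.2 against 18.1 CPM (1.26). *ESR1* had 11.0 against 34.1 CPM (-1.63), *PDGFRA* 7.86 against 21.9 CPM (-1.48) and *EDNRB* 10.2 against 38.5 CPM (-1.91). *CA4* differed, with 9.67 against 12.0 CPM (-0.31), beside -3.53 in control.

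The list medians in the TGF-β1 library were 0.66 for smooth muscle contractile genes, with 15 of 16 above 0, 0.32 for glycolysis, -0.44 for endometrial stromal genes and -0.75 for growth factors and receptors. They were 0.01 for complement, 0.12 for interferon response and -0.09 for antioxidant genes, beside -0.76, -0.39 and -0.52 in control. Whether the libraries differ in these medians was not tested.

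Shares of other marked cells are given here side by side, and their differences were not tested. After thinning, *CFD*, the complement factor D gene, was found in 28.2% of contractile-high cells and 53.4% of the bottom 50%, with 110 against 340 CPM (-1.62, -1.68 to -1.56), and 17 of the 386 (4.40%) were in the top 10% of control cells by *CFD*. The keratin gene *KRT8* was found in 19.7% (15.8% to 24.0%) against 25.8% (23.9% to 27.8%), and the adhesion molecule gene *VCAM1* in 7 cells (1.81%, 0.732% to 3.70%) against 6.88% (5.80% to 8.11%).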

How the data were processed

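The authors deposited count matrices, in UMIs, from Cell Ranger and the EquCab3.0 genome. The submitters' notes name version 7.1.0 and the file header 8.0.1. All values were whole numbers. Of 4384 control and 5124 TGF-β1 barcodes, 3865 (88.2%) and 4513 (88.1%) passed 3 limits: 20000 or more UMIs, 3500 or more detected genes, and less than 4% mitochondrial UMIs (symbols beginning MT-). No doublets were removed, and possible doublets were treated by an alternative without cells above the 98th percentile of UMIs (114614). The deposited files do not assign cells to mares, so the edgeR 4.2.2 tests of the study were not repeated.

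Log2 ratios carry no pseudocount, and none is given where both groups had 3 or fewer UMIs. The 4 genes of the rule stayed in the totals. For shares each cell was thinned to 20000 UMIs (seed 1). Clustering left out the 4 genes and used 2000 variable genes, 30 components, 15 neighbours and Leiden resolution 0.5. Intervals are narrow at high depth and hold no difference between cultures. Python 3.11.15, numpy 2.4.6, scipy 1.17.1, pandas 2.3.3, scikit-learn 1.9.0, scanpy 1.11.5, leidenalg 0.10.2 and matplotlib 3.10.9 were used.

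The members, 30 gene lists and 8 marker lists were chosen with earlier results of these data known, and 597 of 637 list genes and 70 of 75 markers were found. Named genes are those of the rule, the 15 highest and 15 lowest ratios, the 4 largest ratios and the most abundant gene of each list over kept control cells, the markers, the leading genes of clusters, and *VIM*, *COL1A1*, *FN1*, *CCN2*, *TGFB1*, *MFGE8*, *KRT8*, *CFD* and *VCAM1*. Not every gene this rule takes is described. Alternatives changed the cell filters, share of cells, comparison cells, score, scaling, standardisation and limits. A search of promoters for motifs was not run, for lack of promoter sequences.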

Additional observations from a re-analysis of the deposited data

Results flagged for a closer look

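*CADPS*, which primes vesicles for release, had opposite directions in the 2 libraries: 38.3 CPM in contractile-high control cells against 18.1 CPM in the bottom 50% (log2 ratio 1.08, 0.96 to 1.20), and 56.1 against 71.0 CPM (-0.34, -0.43 to -0.25) in the TGF-β1 library under the same rule. *MGMT*, a DNA repair gene, had 92.0 against 199 CPM (-1.11, -1.18 to -1.05) in control and 59.8 against 54.2 CPM (0.14, 0.06 to 0.23) in the TGF-β1 library. Each library is 1 sample, the intervals cover counting error only, and the difference between the libraries was not tested.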

How the results depend on the processing

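Of 180 named and tested genes 66 were more than 2-fold apart, and all kept their sign under 16 other choices of cells, score or scaling except *TPX2*, which went from -1.06 to 0.92 without cells that had cycling markers. Between 41 (all other kept cells as the comparison) and 66 of the 66 stayed past 2-fold. The count of 289 genes past 2-fold became 163 with the top 20% of cells, 100 against all other kept cells, 137 with the bottom 50% standardised to clusters, 894 with a minimum of 1 CPM, 140 with a minimum of 30 CPM and 1283 with a 1.5-fold limit. The median of the smooth muscle contractile list, 1.10, became 1.25 with the top 5% of cells, 0.99 with the top 20%, 0.75 against all other kept cells, 1.27 with the median-of-ratios size factor and 1.03 with a minimum of 1 CPM. In the TGF-β1 library 171 genes past 2-fold became 582 with a minimum of 1 CPM and 1230 with a 1.5-fold limit. The share of contractile-high cells with *ACTG2* was 81.1% without thinning and 73.6% with it. The cause of these shifts was not tested beyond what each choice changes by construction. With 1 library per condition and 4 mares pooled, no value holds the difference between cultures or mares.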
